A study of Mus musculus with 24 samples.

Results

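The genes described here encode the apoptosome and the PIDDosome, protein complexes that switch on caspases. They were taken by symbol: Apaf1, Casp9, Casp6, Cycs and Diablo for the apoptosome and its partners, and Casp2, Pidd1 and Cradd for the PIDDosome. All 8 were found among the 25239 genes of a table of TPM, an abundance of transcripts scaled for their length and for the library total, from 24 RNA-sequencing libraries. The libraries came from 6 cell lines of mouse small cell lung cancer (SCLC), a neuroendocrine lung tumour. Each line was grown from an individual tumour of mice with floxed Rb1 and Rbl2 (both flox/flox), Trp53 XTR/XTR and Rosa26 FlpO-ER, in which an adenovirus with Cre under the CMV promoter started the tumours. Cre flips the XTR gene trap so that Trp53, the gene of p53, is cut short. 4-hydroxytamoxifen activates FlpO-ER, which removes the trap and restores p53. These alleles, and exposure to Cre, were shared by all groups. The study calls lines that lose viability after restoration Type D (4711-1, 4711-18 and 4716-11) and lines that stay viable Type V (4711-11, 4716-10 and 4716-14). Every line was sampled after 72 h of ethanol vehicle (Control), vehicle with cyclosporin A (Control + CsA), 4-hydroxytamoxifen (Restored) and 4-hydroxytamoxifen with cyclosporin A (Restored + CsA). Cyclosporin A (CsA) inhibits cyclophilins. There were therefore 8 groups of 3 lines. Without a block, p-values measure the spread between lines within groups, pooled over all groups. They count the libraries of a line as independent and do not use the pairing by line. TPM holds no read counts, so the depth behind each value is unknown.

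The apoptosome assembles when cytochrome c, the product of Cycs, leaves mitochondria and binds APAF1, which then oligomerises and recruits the initiator caspase-9. Caspase-9 activates executioner caspases, and caspase-6 acts among these. DIABLO, also called SMAC, leaves mitochondria with cytochrome c and binds inhibitor of apoptosis proteins, which frees caspases from them. In the PIDDosome, PIDD1 binds the adaptor CRADD, also called RAIDD, which recruits caspase-2. This complex is known for responses to extra centrosomes and DNA damage and for cleavage of MDM2, the ubiquitin ligase of p53. Apaf1 and Pidd1 are textbook p53 target genes.

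The labels were first checked against Trp53 itself. Trp53 was between 10.5 and 15.3 TPM in the 12 libraries without 4-hydroxytamoxifen and between 181 and 253 TPM in the 12 with it. On the log2(TPM + 1) scale the difference was 3.97 for Type D and 3.85 for Type V. Neuroendocrine markers differed between the types. Chga was listed at 0 in every library and Syp reached at most 1.41 TPM, while Ncam1 was between 4.46 and 27.3 TPM. Uchl1 was 18.9 to 40.9 TPM in Type V Control and 3.89 to 6.58 in Type V Restored, against at most 2.66 in Type D, and Insm1 reached 49.6 TPM in Type V against at most 3.39 in Type D. Rb1 and Rbl2 transcripts were present, with Rb1 between 7.36 and 68.8 TPM, and gene-level values do not show whether the floxed exons were lost. Of 6 leukocyte markers, Cd68 was the only one above 1.68 TPM, while Adgre1 and Cd3e were listed at 0 in every Type D library and Ptprc reached at most 0.154 TPM. In these bulk libraries, fewer cells of a kind and less RNA per cell cannot be told apart.

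The promoters of Apaf1 and Pidd1 are shown because these members moved together in the results that follow. Each window holds the 250 bases before the RefSeq start site, read 5′ to 3′ along the gene (GRCm38.p6). Capitals mark GGGCGG, the GC box bound by factors of the SP family, on either strand. The Apaf1 window is chr10:91082744-91082993 and the Pidd1 window is chr7:141444026-141444275, both on the minus strand.
Apaf1: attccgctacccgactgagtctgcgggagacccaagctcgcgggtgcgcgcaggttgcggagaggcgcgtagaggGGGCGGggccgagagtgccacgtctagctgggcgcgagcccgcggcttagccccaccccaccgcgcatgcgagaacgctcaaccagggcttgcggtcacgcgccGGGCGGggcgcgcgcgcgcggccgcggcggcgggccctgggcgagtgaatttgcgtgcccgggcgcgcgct
Pidd1: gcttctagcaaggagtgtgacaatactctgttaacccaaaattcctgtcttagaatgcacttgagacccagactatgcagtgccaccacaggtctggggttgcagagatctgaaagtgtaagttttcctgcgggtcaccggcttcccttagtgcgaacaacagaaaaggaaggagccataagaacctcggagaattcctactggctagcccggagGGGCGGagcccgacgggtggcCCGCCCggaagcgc
The Apaf1 window is rich in G and C, at 75.6 percent, against 54.8 percent for Pidd1 and a median of 52.4 percent over 32851 promoter windows. Apaf1 has GC boxes starting 175 and 71 bases before the start site, and Pidd1 has them starting 35 and 14 bases before it. A GC box was present in 6 of the 8 members, in all but Cycs and Cradd, and in 32.7 percent of all windows. CCAAT, bound by NF-Y, was in Cycs, Diablo and Casp2 and in 33.8 percent of all windows. The consensus p53 decamer had no match, on either strand, in the window of any member, and 7.13 percent of all windows held one. These are matches of letters in short windows, and p53 sites elsewhere in the genes were not searched. GENCODE M21 places the start of Apaf1 slightly upstream, at 91082770, so the last bases of that window are transcribed in its model.

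Before restoration the executioner Casp6, the mitochondrial protein gene Diablo and the caspase gene Casp2 stood highest, and Apaf1, Pidd1 and Casp9 stood low. Cradd was the lowest of the 8 in every unrestored library of Type V and of line 4711-18, but not in lines 4711-1 and 4716-11. Casp6 was the highest of the 8 in all 3 Type D Control libraries, at 43.7, 70.5 and 70.8 TPM. In Type V Control it was highest in 2 libraries and Diablo in 1. After restoration Pidd1 was the highest of the 8 in all 12 libraries. Every member was at least 1 TPM in all 24 libraries, so all 8 were tested.

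**Figure D1:**
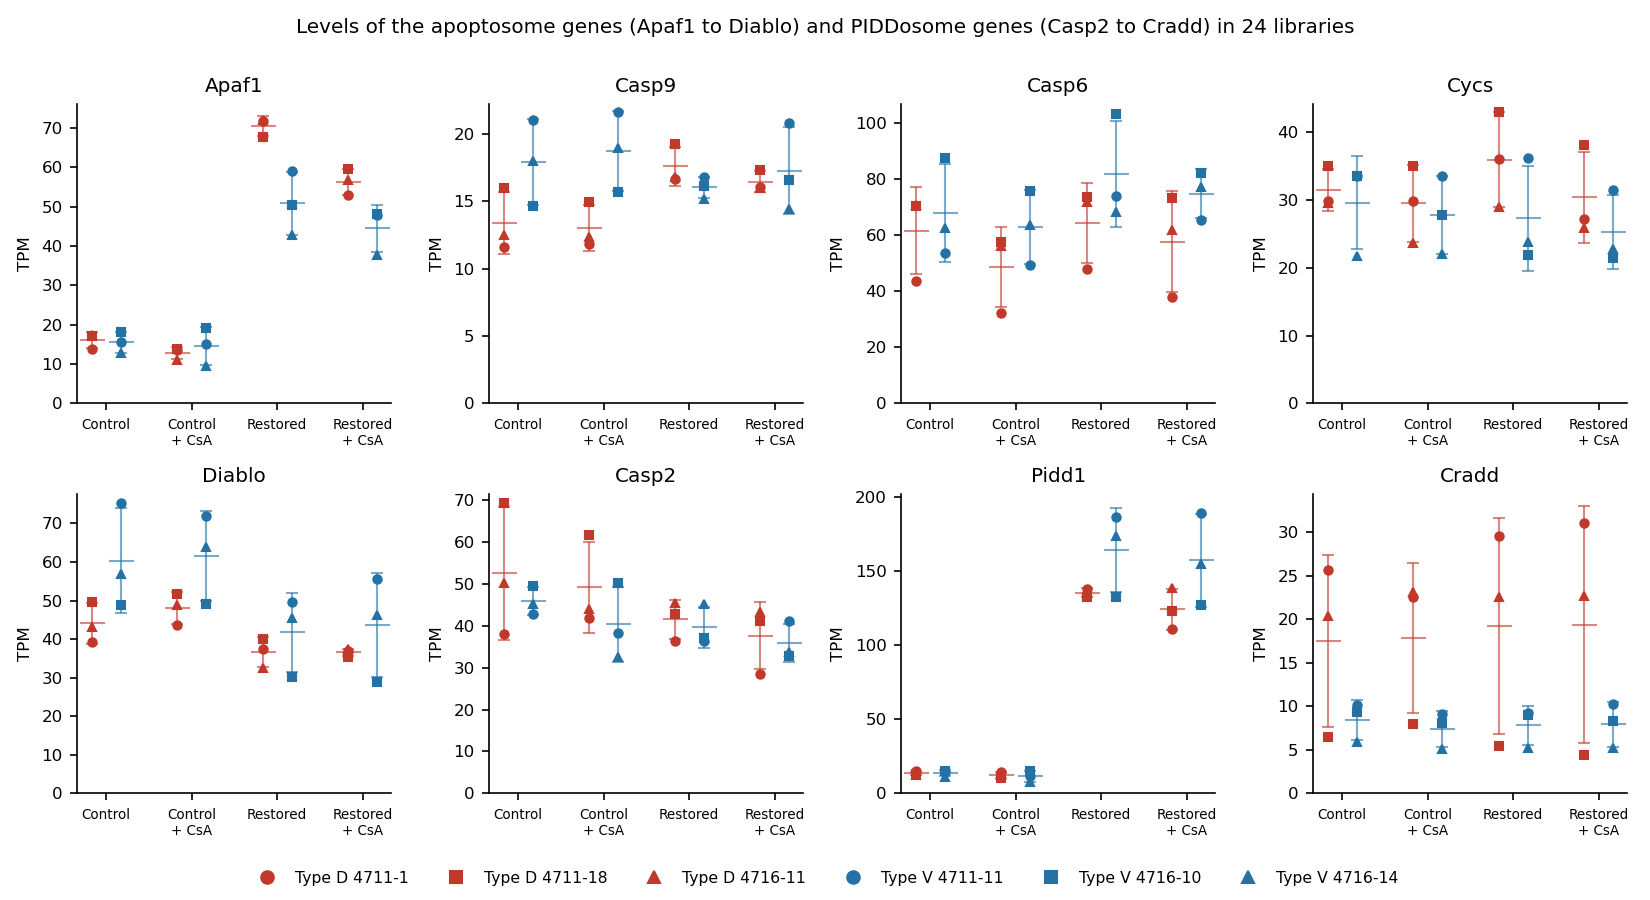
TPM of the 8 members (vertical axes, from 0) in the 4 conditions, Type D in red and Type V in blue, with 1 point per line, a bar at the mean of 3 lines and whiskers of 1 SD. Pidd1 and Apaf1 step up in every restored library, whereas the spread of Cradd follows the lines, with line 4711-18 apart from the other Type D lines.

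Restoration of p53 asked which of these genes change when Trp53 is expressed again. In each type, with and without CsA, 2 of the 8 members passed the test, limma's adjusted p under 0.05 over 14104 genes, and both were higher: Pidd1, which nucleates the PIDDosome, and Apaf1, the scaffold of the apoptosome. Over all genes the share called was 12.9 percent in Type D and 9.95 percent in Type V, and under CsA it was 8.89 percent in Type D and 7.71 percent in Type V. The members' median difference was 0.12 log2 for Type D and -0.11 for Type V, beside 0.07 and 0.05 over all genes tested. Cd68, 1 of the 6 leukocyte markers above, also differed with restoration. It was 7.87 to 9.92 TPM in Type D Control against 29.1 to 55.3 in Restored, and 6.86 to 10.1 against 16.1 to 31.3 in Type V. Ptprc stayed at or below 0.154 TPM and Adgre1 at or below 0.0449 TPM in every library. The summed level of 4 fibroblast markers was 184 to 457 TPM in Type V Control and 27.4 to 184 in Restored. The part of Cd68 or of the fibroblast markers in the results was not tested.

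Pidd1 measured 14.8, 13.3 and 12.7 TPM in Control for the Type D lines 4711-1, 4711-18 and 4716-11, against 138, 133 and 136 TPM when they were restored. Lines keep this order throughout. Type V lines 4711-11, 4716-10 and 4716-14 had 14.3, 14.99 and 11.2 TPM in Control and, once restored, 187, 132 and 174 TPM. No restored library came near a Control library, and the restored Type D lines lay within a narrow band (136 ± 2.82 TPM, SD, n = 3) while Type V lines spread more widely (164 ± 28.5 TPM, SD, n = 3). The difference was 3.23 log2 in Type D (SE 0.20, 95% interval 2.81 to 3.65, limma adjusted p = 4.96e-09) and 3.51 log2 in Type V (SE 0.20, 95% interval 3.08 to 3.93, adjusted p = 1.75e-09). Line by line, Type D gave 3.14, 3.23 and 3.32 log2 and Type V gave 3.62, 3.06 and 3.84. Of the 14104 genes ordered by their difference, Pidd1 was number 49 in Type D and number 37 in Type V.

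Under CsA, Pidd1 stood at 14.3, 10.5 and 12.3 TPM in Type D Control + CsA and at 111, 123 and 139 TPM in Restored + CsA. In Type V the values were 11.9, 15.04 and 7.65 TPM and then 189, 127 and 155 TPM. Again the groups did not overlap. The difference was 3.23 log2 in Type D (adjusted p = 5.82e-09) and 3.69 log2 in Type V (adjusted p = 7.18e-10). Restoration accounted for 98.1 percent of the sum of squares of Pidd1 over the 24 libraries on the log2 scale, and lines within a type for 0.333 percent.

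Apaf1 measured 13.7, 17.1 and 17.3 TPM in the Type D Control lines, against 71.8, 67.7 and 72.0 TPM in Restored. Type V lines had 15.7, 18.0 and 12.7 TPM in Control and, once restored, 59.1, 50.5 and 42.9 TPM. Every restored library was above every Control library, and each restored Type D library was above each restored Type V library. The difference was 2.08 log2 in Type D (SE 0.20, 95% interval 1.66 to 2.49, adjusted p = 8.36e-07), about 4.22-fold in TPM + 1. In Type V it was 1.65 log2 (SE 0.20, 95% interval 1.24 to 2.07, adjusted p = 1.73e-05), about 3.14-fold. Line by line, Type D gave 2.31, 1.92 and 2.0 log2 and Type V gave 1.85, 1.44 and 1.68.

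With CsA present, Apaf1 was at 13.5, 13.7 and 11.1 TPM in Type D Control + CsA and at 52.9, 59.5 and 56.7 TPM in Restored + CsA. The Type V values were 15.2, 19.2 and 9.58 TPM, and 47.8, 48.2 and 37.7 TPM after restoration. The groups stayed apart in both types. The difference was 2.06 log2 in Type D (adjusted p = 1.09e-06) and 1.58 log2 in Type V (adjusted p = 2.88e-05). The Type V call was lost when the groups compared were fitted alone (adjusted p = 0.0613), with the same difference. Restoration accounted for 92.1 percent of the sum of squares of Apaf1.

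**Figure D2:**
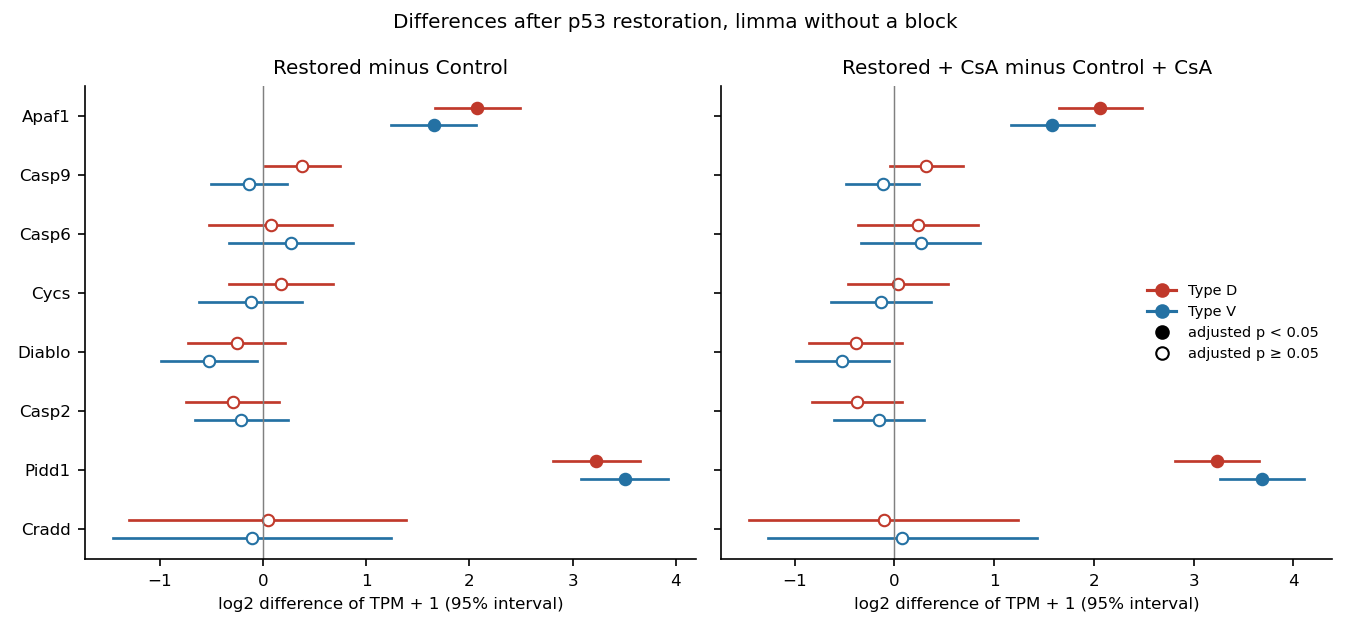
Differences after restoration in log2 of TPM + 1 (horizontal axes) with 95% intervals for each member, without CsA (left) and with it (right), Type D in red and Type V in blue. Filled points have an adjusted p under 0.05, and only Apaf1 (1.58 to 2.08) and Pidd1 (3.23 to 3.69) are filled.

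The other 6 members moved little, and which of them passed depended on whether each line was compared with itself. The 4 libraries of a line resemble each other, and a fit with cell line as a fixed block removes differences between lines. In that fit 4 of 8 members passed in each restoration comparison. The share of all genes called rose as well, to 45.3 percent in Type D, 40.6 percent in Type V, 41.1 percent in Type D under CsA and 37.1 percent in Type V under CsA, so a count of 4 of 8 is near the background. The members added by the fixed block were Casp9 and Diablo in Type D and Casp6 and Diablo in Type V, with and without CsA. With line as a random block, which called 44.2 percent of genes in Type D and 39.2 percent in Type V, and under CsA 39.9 and 35.2 percent, 3 of 8 members passed in Type D (Casp9 added) and 3 in Type V (Diablo added). Under CsA the random block gave 5 in Type D (Casp9, Diablo and Casp2 added) and 3 in Type V (Diablo added). In what follows "the block" is the fixed one unless the random one is named.

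Diablo was lower in the restored library in 12 of 12 pairs of libraries from a line, with differences from -0.74 to -0.06 log2. Each of the 6 lines gave a pair without CsA and a pair with it, so the 12 are not independent. For this and the counts of pairs below, how often other genes were as one-sided was not counted. Type D lines held 39.2, 49.7 and 43.3 TPM in Control, against 37.5, 40.0 and 32.4 TPM in Restored, and the groups overlapped. Type V lines had 75.3, 48.8 and 56.9 TPM in Control and, once restored, 49.7, 30.2 and 45.5 TPM, with line 4711-11 highest and line 4716-10 lowest in both conditions. The difference was -0.26 log2 in Type D (adjusted p = 0.541, 0.0427 with the block and 0.0509 with the random block) and -0.53 log2 in Type V (adjusted p = 0.159, and 0.000533 with the block). Under CsA, where the Type D groups did not overlap, it was -0.39 log2 in Type D (adjusted p = 0.341, and 0.00536 with the block) and -0.52 log2 in Type V (adjusted p = 0.189, and 0.000712 with the block). The Diablo gene overlaps B3gnt4 on the opposite strand, which reached at most 1.5 TPM. On the same strand it overlaps Mir7647 and Gm49027, a protein-coding gene without a TPM value here. How reads shared with them were assigned is not given in the sources used here.

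Casp9, the initiator caspase that APAF1 recruits, measured 11.7, 15.99 and 12.5 TPM in the Type D Control lines, against 16.7, 19.3 and 16.8 TPM in Restored. All 3 lines were higher and the groups did not overlap. Here and elsewhere, the share of all genes whose groups did not overlap was not counted. The Type V values were 21.1, 14.7 and 18.0 TPM in Control and 16.8, 16.1 and 15.2 TPM in Restored, higher in 1 line and lower in the other two. The difference was 0.38 log2 in Type D (95% interval 0.01 to 0.75, adjusted p = 0.179, and 0.00734 with the block) and -0.14 log2 in Type V (95% interval -0.50 to 0.23, adjusted p = 0.748, and 0.310 with the block). Under CsA the Type D difference was 0.32 log2 (adjusted p = 0.303, and 0.0214 with the block). Cela2a and Ctrc, which overlap Casp9 on the opposite strand, reached at most 0.139 TPM and 0 TPM.

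Casp6 was higher in the restored library in 12 of 12 pairs, but by no more than 0.45 log2. It measured 43.7, 70.5 and 70.8 TPM in the Type D Control lines, against 48.1, 73.7 and 72.0 TPM in Restored. Type V lines had 53.8, 87.5 and 62.8 TPM in Control and, once restored, 73.9, 103 and 68.5 TPM. Lines differed more than conditions, with 4711-1 lowest and 4716-10 highest in both states, and lines within a type held 59.6 percent of the sum of squares. The difference was 0.07 log2 in Type D (adjusted p = 0.948, and 0.571 with the block) and 0.27 log2 in Type V (adjusted p = 0.679, 0.0331 with the block and 0.0663 with the random block). Under CsA it was 0.24 log2 in Type D (adjusted p = 0.720, and 0.0563 with the block) and 0.26 log2 in Type V (adjusted p = 0.724, 0.0405 with the block and 0.0781 with the random block).

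Casp2 and Cradd, the partners of PIDD1, did not pass the test in any comparison with restoration when no block was used. Casp2 measured 38.1, 69.5 and 50.2 TPM in the Type D Control lines, against 36.5, 42.8 and 45.4 TPM in Restored. Type V lines had 43.0, 49.6 and 45.2 TPM in Control and, once restored, 36.4, 37.2 and 45.3 TPM. The groups overlapped in both types, and the difference was -0.30 log2 in Type D (95% interval -0.75 to 0.16, adjusted p = 0.442) and -0.21 log2 in Type V (95% interval -0.66 to 0.24, adjusted p = 0.662). Under CsA it was -0.38 log2 in Type D (adjusted p = 0.334, 0.0659 with the block and 0.0469 with the random block, which called it). Casp2 was lower after restoration in 9 of 12 pairs.

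Cradd split the lines rather than the conditions. Type D lines held 25.6, 6.47 and 20.4 TPM in Control, against 29.5, 5.45 and 22.6 TPM in Restored. Type V lines had 10.1, 9.37 and 5.86 TPM in Control and, once restored, 9.19, 9.04 and 5.20 TPM. Line 4711-18 was low among Type D lines in each of its 4 libraries, from 4.38 to 7.95 TPM, while the other Type D lines were between 20.4 and 31.0 TPM. Lines within a type held 65.5 percent of the sum of squares, the type 31.5 percent and restoration 0.0196 percent. The difference with restoration was 0.04 log2 in Type D (95% interval -1.30 to 1.39, adjusted p = 1) and -0.11 log2 in Type V (95% interval -1.45 to 1.24, adjusted p = 0.976). The wide intervals come from the spread between lines, and compared line by line the changes lay between -0.21 and 0.20 log2 without CsA and, with the pairs under CsA, between -0.73 (line 4711-18) and 0.44 (line 4711-1).

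Cycs, the gene of cytochrome c, measured 29.8, 35.0 and 29.5 TPM in the Type D Control lines, against 36.0, 43.0 and 28.9 TPM in Restored. Type V lines had 33.6, 33.4 and 21.7 TPM in Control and, once restored, 36.1, 21.8 and 23.8 TPM. The groups overlapped, and the difference was 0.17 log2 in Type D (95% interval -0.33 to 0.67, adjusted p = 0.746) and -0.12 log2 in Type V (95% interval -0.62 to 0.38, adjusted p = 0.865). Processed pseudogenes of Cycs are known in mouse, and how their reads were assigned is not given in the sources used here.

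Because levels per length can be compared within a library, the ratios between partners were also read. The level of Apaf1 relative to Casp9 was 0.506 to 1.38 in the 12 libraries without restoration and 2.30 to 4.30 in the 12 with it. Cycs was 1.45 to 2.55 times the level of Apaf1 without restoration and 0.402 to 0.660 times with it. Transcripts of Apaf1 thus went from below to above those of Cycs in every line, with and without CsA.

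In the PIDDosome, Pidd1 was 0.170 to 0.389 times the level of Casp2 without restoration and 2.99 to 5.13 times with it. Relative to Cradd, Pidd1 was 0.533 to 2.05 times without restoration and 3.58 to 33.5 times with it. The range of the last ratio follows the lines: with restoration, the lines high in Cradd, 4711-1 and 4716-11, were between 3.58 and 6.13, and the other 4 lines were above 14.6. Ratios of transcripts are not ratios of proteins.

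**Figure D3:**
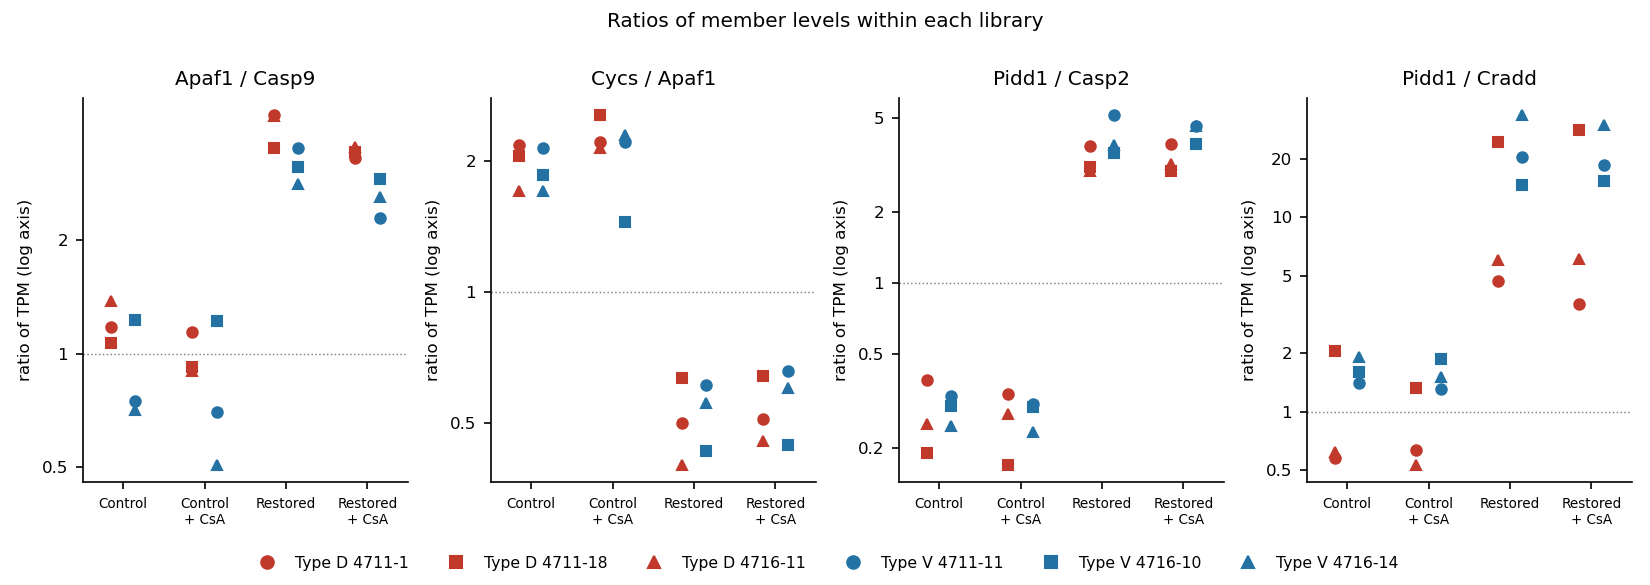
Ratios of TPM between members within each of the 24 libraries (log axes, dotted line at 1), Type D in red and Type V in blue, with 1 symbol per line. Apaf1 to Casp9 and both Pidd1 ratios are higher, and Cycs to Apaf1 is lower, in all 12 restored libraries than in all 12 others.

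The comparison of Type D with Type V in each state asked whether the classes differ in these genes. In limma 0 of 8 members passed in Control, Restored or Restored + CsA, whereas 13.1, 14.8 and 11.9 percent of all genes were called. At an unadjusted p under 0.05 there was 1 member in Control (Casp9), 1 in Restored (Apaf1) and 0 in Restored + CsA, beside 3850, 4120 and 3730 genes. Median-ratio scaling moved the median difference of all genes in Control from -0.12 to -0.02 log2. The summed level of 4 fibroblast markers also separated the types, at most 1.93 TPM in Type D and 17.9 to 521 TPM in Type V. Of these markers, Col1a2 and Dcn did not overlap between types. Col1a1 did, with up to 1.55 TPM in Type D and from 0.698 TPM in Type V. Pdgfra also overlapped, at most 0.261 TPM in Type D and 0 to 3.37 TPM in Type V. The part of these markers was not tested.

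Casp9 in Control was lower in Type D by 0.39 log2 (95% interval -0.76 to -0.03, adjusted p = 0.152). Restored Apaf1 was 0.48 log2 higher in Type D (95% interval 0.06 to 0.89, adjusted p = 0.116), with no overlap between 67.7 to 72.0 TPM in Type D and 42.9 to 59.1 TPM in Type V. In Restored + CsA the Apaf1 difference was 0.34 log2 (adjusted p = 0.286), again without overlap. Pidd1 had the opposite sign, -0.26 log2 in Restored (adjusted p = 0.416) and -0.32 in Restored + CsA (adjusted p = 0.324), and its groups overlapped.

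Cradd was 0.81 log2 higher in Type D Control, with a wide interval (-0.54 to 2.16, adjusted p = 0.448). Line 4711-18 decided this value: without it the difference was 1.37 log2 in Control (adjusted p = 0.0124), 1.64 in Restored (adjusted p = 0.00395) and 1.67 in Restored + CsA (adjusted p = 0.00411). Only lines 4711-1 and 4716-11 then remain in Type D, and these p-values count the libraries of a line as independent. Diablo was 0.43 log2 lower in Type D Control (-0.43, adjusted p = 0.224). Without the Type V line 4716-10 it passed, at -0.57 log2 in Control (adjusted p = 0.0173) and -0.46 in Restored + CsA (adjusted p = 0.0461). Only lines 4711-11 and 4716-14 then remain in Type V.

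Whether the response to restoration differs between types was tested as an interaction. In limma 0 of 8 members passed, beside 0.0284 percent of all genes, and under CsA 0 of 8 passed, beside 0.0142 percent. At an unadjusted p under 0.05 there was 1 member, Casp9, among 540 genes, and under CsA 0 members among 430. The response of Apaf1 was 0.42 log2 larger in Type D (95% interval -0.16 to 1.01, adjusted p = 1) and that of Pidd1 0.28 log2 smaller (-0.28, 95% interval -0.87 to 0.32, adjusted p = 1). The intervals without a block allow a difference of up to 1.01 log2 for Apaf1, so similar responses are not shown. With the fixed block the interval was 0.05 to 0.80 for Apaf1 (adjusted p = 0.164) and -0.83 to 0.27 for Pidd1 (adjusted p = 0.563). Under CsA the Apaf1 difference was 0.48 log2 (95% interval -0.11 to 1.07). With the fixed block that interval was 0.11 to 0.85 (adjusted p = 0.125). The Casp9 difference was 0.52 log2 larger in Type D (adjusted p = 1). With cell line as a block its adjusted p was 0.0512 for a fixed block, which called 5.57 percent of genes, and 0.0444 for a random block, which called 4.47 percent.

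Cyclosporin A was compared in Control and in Restored cells. In limma 0 of 8 members passed for CsA alone in Type D or Type V, where 0.0 percent of all genes were called in each. For CsA added to Restored cells 0 of 8 passed, beside 0.0142 percent of genes in Type D and 0.0 percent in Type V. The interaction of CsA with type in Restored cells called 0 members and 0.0 percent of genes. At an unadjusted p under 0.05 there were 0 members in these 5 comparisons, beside 114, 54, 229, 100 and 102 genes.

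Apaf1 was lower with CsA in 11 of 12 pairs, with a median of -0.24 log2. Each of the 6 lines gave a pair in Control and a pair in Restored, so the pairs are not independent. Such counts were not tested, and how often other genes were as one-sided was not counted. The median over all genes was -0.03 and -0.01 log2 for CsA alone in Type D and Type V. For CsA added to Restored it was 0.00 and -0.02 log2. In Restored Type D cells the mean was 70.5 ± 2.45 TPM without CsA and 56.4 ± 3.29 TPM with it (SD, n = 3), without overlap. This difference was -0.32 log2 (95% interval -0.73 to 0.10, adjusted p = 1, and 0.283 with the block). In Restored Type V cells it was -0.18 log2 (95% interval -0.60 to 0.23, adjusted p = 1). The interaction was -0.13 log2 (95% interval -0.72 to 0.45, adjusted p = 1).

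Cycs was lower with CsA in 11 of 12 pairs, with a median of -0.11 log2, and Casp6 in 10 of 12, with a median of -0.21 log2. The largest member difference for CsA alone was that of Casp6 in Type D, -0.35 log2, lower in all 3 lines (95% interval -0.95 to 0.25, adjusted p = 1, and 0.360 with the block). Pidd1 was lower in 9 of 12 pairs, and its difference in Restored cells was -0.13 log2 for Type D and -0.07 for Type V. Casp9 and Cradd were lower in 6 of 12 pairs each, and Diablo in 4.

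**Figure D4:**
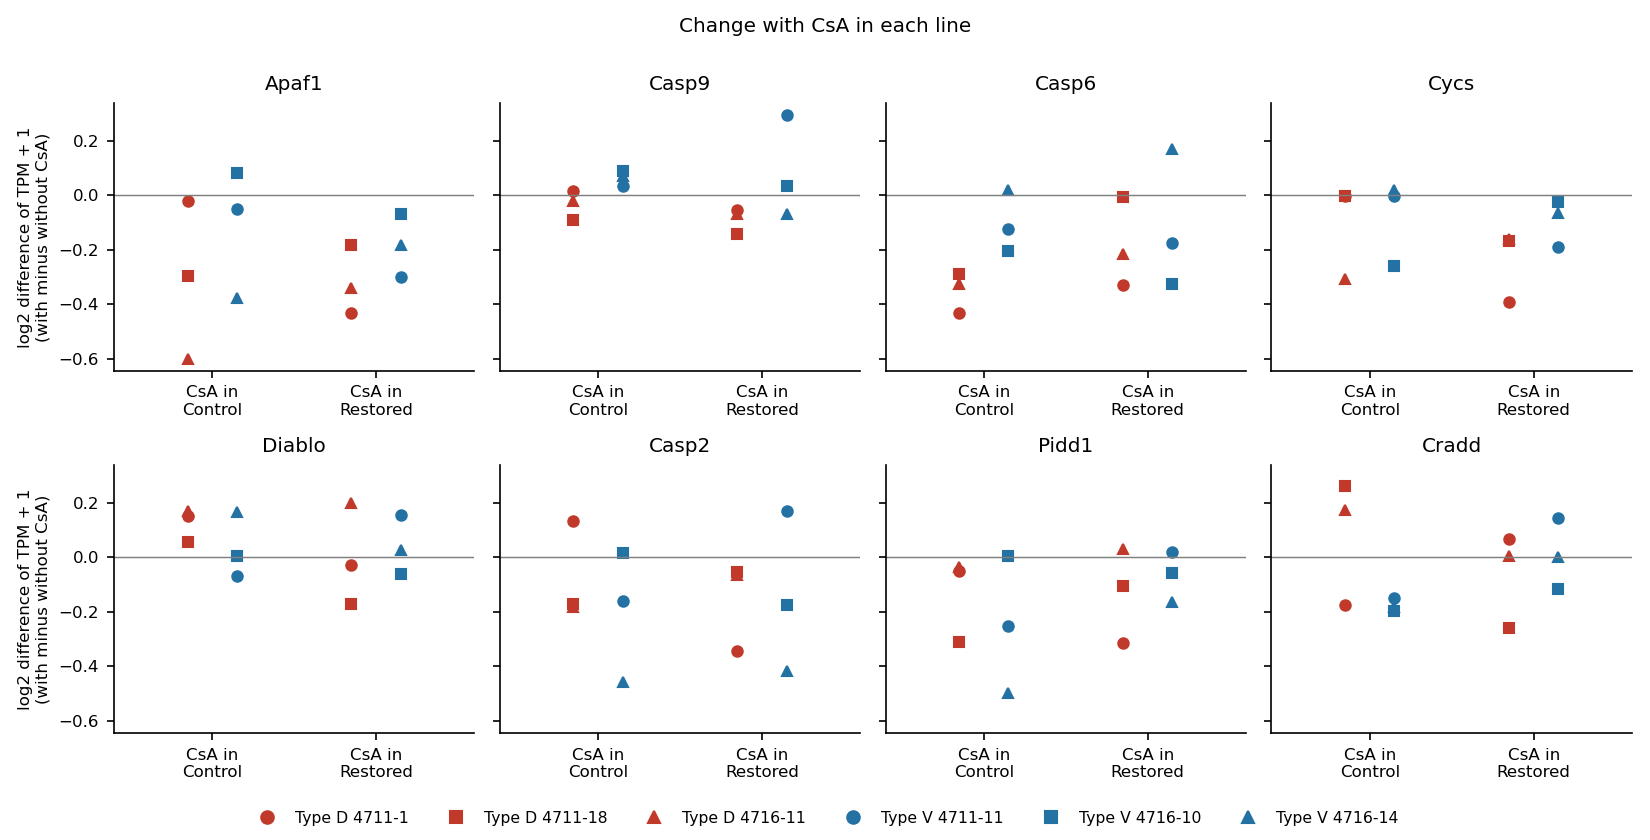
Change with CsA in log2 of TPM + 1 (vertical axes) for each line, in Control and in Restored cells, Type D in red and Type V in blue. Points for Apaf1 and Cycs lie below 0 in 11 of 12 pairs, while those for Casp9, Diablo and Cradd lie on both sides.

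Genes around the members were read from 5 lists of 38 genes by known role, of which 37 passed the filter on low values. With restoration 7 were higher and 7 lower in Type D, and 6 were higher and 7 lower in Type V. The share of all genes called was 12.9 percent in Type D and 9.95 percent in Type V. Under CsA 6 were higher and 4 lower in Type D, and 5 higher and 5 lower in Type V, beside 8.89 and 7.71 percent of all genes. The same shares apply to the counts without a block for each list below. In limma 0 of 37 passed for CsA alone or CsA added to Restored cells, with 1 at an unadjusted p under 0.05 for CsA alone in Type V (Htra2), 1 for CsA added in Type D (Mdm2) and 0 in the other two comparisons. The difference between types in the response to restoration called 0 of 37, with 4 at an unadjusted p under 0.05, Bak1, Lmna and Mdm2 among them.

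Of 11 genes that govern mitochondrial release, 4 were higher in Type D, where 12.9 percent of all genes were called. Those with the largest differences were Pmaip1 (2.78 log2) and Bbc3 (2.15), BH3-only proteins also called NOXA and PUMA, and Bax (1.17), a pore former; Mcl1, a survival gene, was at 0.53. The list median was 0.53 log2 against 0.07 over all genes. In Type V 3 were higher, Bbc3 (1.36 log2), the survival gene Bcl2l1 (1.31) and Bax (1.29), and the pore former Bak1 was lower (-0.85), with a list median of 0.37 against 0.05. With the block 7 of 11 passed in Type D and 9 of 11 in Type V, beside 45.3 and 40.6 percent of all genes.

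Of 6 tested regulators of the apoptosome, 3 were lower in each type, beside 12.9 percent of all genes called in Type D and 9.95 percent in Type V. In Type D these were Anp32a (-1.19 log2) and Cse1l (-1.16), whose products promote apoptosome activity, and Ptma (-0.75), whose product inhibits it. In Type V they were Cse1l (-1.19 log2), Aven (-1.11), which binds APAF1 and restrains it, and Anp32a (-0.84). List medians were -0.62 and -0.67 log2. With the block 5 of 6 passed in Type D, all lower, beside 45.3 percent of all genes. Cyct, the testis form of cytochrome c, was too low to test.

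Of 7 inhibitor of apoptosis genes and their antagonists, Birc5, the gene of survivin, which also acts in mitosis, was lower, with -3.16 log2 for Type D and -2.13 for Type V. Htra2, a mitochondrial protease that antagonises these inhibitors, was also lower, at -0.50 and -0.41 log2. List medians were -0.33 log2 for Type D and -0.07 for Type V. Among 7 downstream caspases and substrates, Dffb, the nuclease that cuts DNA in apoptosis, was higher in Type D (1.02 log2) and Type V (1.48). Parp1, a caspase substrate, was lower (-0.85 and -0.76 log2), and so was the lamin gene Lmna in Type D (-0.49). The medians of this list were 0.04 and 0.19 log2.

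Of 6 PIDDosome partners, Mdm2, whose product PIDDosome-activated caspase-2 cleaves, was higher by 4.37 log2 for Type D and 3.36 for Type V. Under CsA it was higher by 3.99 and 3.39 log2. With the block 4 of 6 passed in Type D and 5 of 6 in Type V, beside 45.3 and 40.6 percent of all genes. List medians were 0.20 and 0.19 log2 in Type D and Type V.

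Several of these calls rested on single lines or on the fit. Without line 4711-18 the Type D adjusted p was 0.0546 for Pmaip1, 0.176 for Ptma and 0.0602 for Parp1. Leaving out any Type D line took Htra2 (0.0546 to 0.0875) and Dffb (0.0572 to 0.156) past the threshold there. In Type V, without line 4716-10 it was 0.0700 for Bbc3, 0.0810 for Bcl2l1, 0.0741 for Aven, 0.0780 for Anp32a, 0.131 for Htra2 and 0.102 for Parp1. Other lines also ended Type V calls: Bcl2l1 without 4711-1, 4711-18, 4716-11 or 4716-14 (0.0740 to 0.0989) and Htra2 without 4711-1, 4716-11 or 4716-14 (0.0644 to 0.124). Without 4711-11 the adjusted p was 0.0957 for Aven, 0.0701 for Anp32a and 0.0855 for Parp1, and without 4716-14 it was 0.0565 for Aven. Bcl2l1 in Type V was also lost with no filter (adjusted p = 0.0603), with median-ratio scaling (0.0609) and with the compared groups alone (0.226). The compared groups alone also ended the Type V calls of Bbc3 (0.0915), Anp32a (0.0881), Htra2 (0.169), Dffb (0.0595) and Parp1 (0.0910), and the Type D call of Ptma (0.0602). Bak1 in Type V was lost without 4716-10 (0.0635) or 4716-14 (0.112). In Type D, Mcl1 was lost without 4711-1, 4711-18, 4716-11 or 4711-11 (0.0651 to 0.268), and Lmna without 4711-1, 4711-18, 4716-11 or 4716-14 (0.0753 to 0.190). Differences of Bax, Cse1l, Birc5 and Mdm2 passed in both types without any 1 line.

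In Control, Type D exceeded Type V in Bok (2.07 log2, adjusted p = 0.0233), a BAX relative, and Lmna (0.65, adjusted p = 0.00790). It was below Type V in Bid (-1.5 log2, adjusted p = 0.00131), which links caspase-8 to mitochondria, and Bak1 (-0.90, adjusted p = 0.00598). Bok was lost without any 1 Type D line (adjusted p = 0.0689 to 0.118) and with the compared groups alone (0.0944). Lmna was lost without 4711-1, 4711-11 or 4716-14 (0.0552 to 0.0762), with the random block (0.0607) and with the compared groups alone (0.111).

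**Figure D5:**
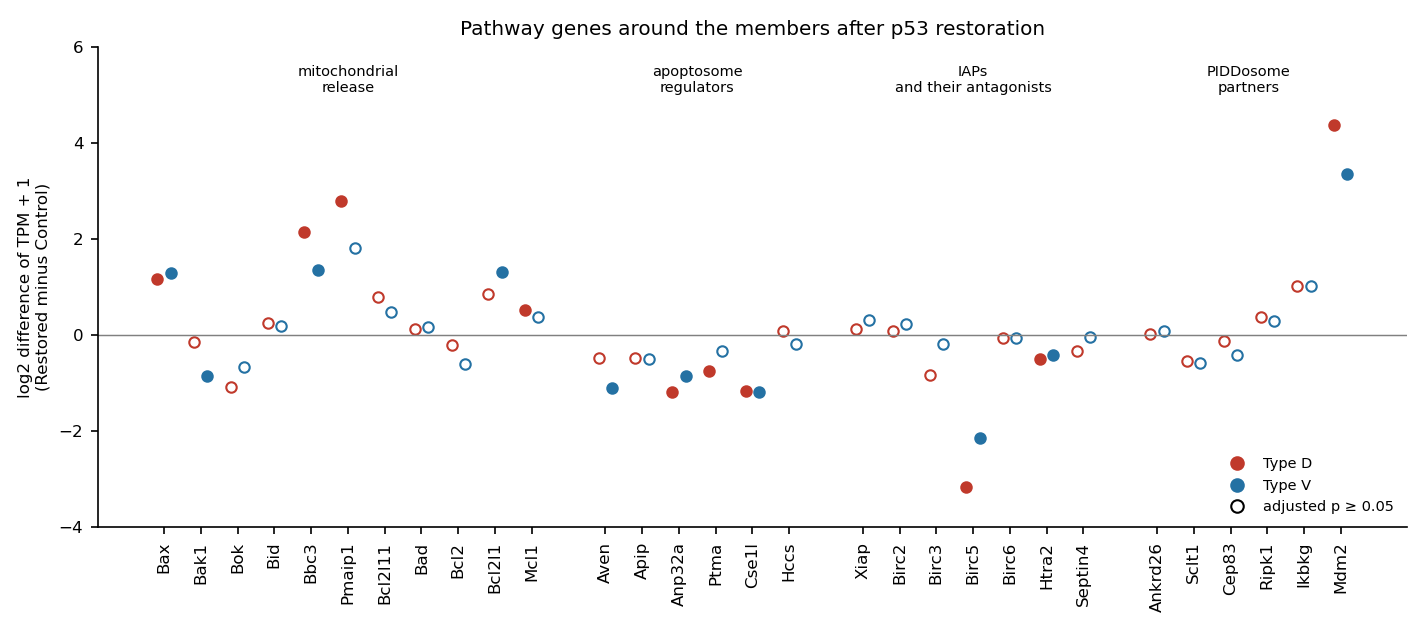
Differences after restoration in log2 of TPM + 1 (vertical axis) for the tested genes of 4 pathway lists, all but the downstream caspases and substrates, Type D in red and Type V in blue, filled where the adjusted p was under 0.05. Mdm2 stands highest, at 4.37 and 3.36 log2, and Birc5 lowest, at -3.16 and -2.13.

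The genes most like each member over the 24 libraries were found by Pearson's r of log2(TPM + 1). The libraries share lines and treatments, so r is given as a description. Pidd1 was most like Zfp365 (r = 0.989), Fbxw9 (0.988) and Trp53 itself (0.987). Apaf1 was most like Aaas (0.977), Mdm2 (0.975) and Gtf3c1 (0.974), and its r with Pidd1 was 0.959. The other 6 members had none of these among their nearest genes.

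Cradd was nearest to Kcnn1 (0.934), Adcy7 (0.930) and Tmem252 (0.927), and Diablo to Wdr82 (0.930), Kyat3 (0.923) and Srsf9 (0.920). Cycs was nearest to Timm17a (0.919), a subunit of the mitochondrial import machinery, Taf13 (0.876) and Tyw5 (0.862). Casp6 was nearest to Grik5 (0.896), Trerf1 (0.854) and Chst11 (0.850), Casp9 to Nploc4 (0.864), Wdfy1 (0.857) and Avl9 (0.856), and Casp2 to Ahcyl1 (0.825), Entpd6 (0.811) and Atpaf2 (0.811). Against Apaf1, the r of Diablo was -0.642 and that of Casp9 was 0.268.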

How the data were processed

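RNA was sequenced from 3 Type D and 3 Type V lines under 4 treatments for 72 h. The authors deposited TPM values for 25239 genes, summing to 1000000 per library, without read counts, and these were used as deposited. Libraries were made with a stranded mRNA kit. The study's methods name Kallisto or HISAT2 and both mm10 and GRCm39, and which of them lies behind the table is not given in the sources used here. A rise of abundant genes lowers the TPM of all others. Groups came from the labels, and all 24 columns were matched to samples by line and treatment.

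Values were analysed as log2(TPM + 1), a scale that understates changes of low genes. Genes with at least 1 TPM in at least 3 libraries (14104) entered a linear model in R 4.3.3 with limma 3.58.1, whose 8 coefficients were the group means (functions lmFit and contrasts.fit, then a trended eBayes). P-values were two-sided and Benjamini-Hochberg adjusted over all 14104 genes within a comparison, and a gene passed at an adjusted p under 0.05. The study also asked for at least 1 log2, which was an alternative. Scripts were tested on simulated data.

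The labels name the cell line of each library, which pairs the libraries: after removal of group means, libraries of a line correlated with r of 0.599 to 0.929 (36 pairs), and those of different lines of a type with -0.675 to 0.0438 (72 pairs). The reported tests had no block, so they count the libraries of a line as independent, with 16 residual degrees of freedom. In tests between types, the p-values can therefore be too small. Tests of restoration and of CsA do not use the pairing, and a block measures the spread of changes within lines instead. Blocked values stand beside the member results they change.

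The members and gene lists were chosen with earlier results of these data known. Named genes are the 8 members, Trp53, at most 3 genes past the test per list and comparison with the largest difference, and the 3 genes most like each member. Other genes were named as marker checks, as genes that overlap a member, or, for Mcl1, Lmna and Bak1 in restoration and the genes at an unadjusted p under 0.05, after their values were seen. Settings tried instead were no filter, a pseudocount of 0.1, a minimum of 5 TPM, quantile normalization, median-ratio scaling, cell line as a fixed or random block, the compared groups alone, the 1 log2 rule and each line left out. Promoter windows are RefSeq's (GRCm38.p6), gene models GENCODE M21. Figures were drawn with matplotlib 3.10.9. Some genes of the lists are not reported here.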

Additional observations from a re-analysis of the deposited data

How the results depend on the processing

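Of 1544 recomputed member differences 20 newly passed the test, 1 no longer passed (Apaf1 in Type V under CsA, the compared groups alone) and 0 called differences changed sign; 50 uncalled ones did. The count of members past the test with restoration, 2 without a block, was 4 with cell line as a fixed replicate block in both types, with and without CsA, and with a random block 3 in Type D, 3 in Type V, 5 in Type D under CsA (Casp2 added, adjusted p = 0.0469) and 3 in Type V under CsA, and 1 in Type V under CsA with the compared groups alone. For the difference between types it was 1 with a random block. With a line left out, members called between types in Control, Restored and Restored + CsA ranged from 0 to 1. The fixed block could not be fitted between types, since each line has 1 type.

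Counts of pathway genes moved more. Both blocks gave 7 and 9 genes of mitochondrial release in Type D and Type V, 5 apoptosome regulators in Type D, and 4 and 5 PIDDosome partners. The compared groups alone gave 1 mitochondrial release gene, 1 inhibitor gene and 0 downstream genes in Type V, 2 PIDDosome partners in Type D, and 1 downstream gene between types. The 1 log2 rule left 1 inhibitor gene in each type, 2 and 1 downstream genes in Type D and Type V, and 1 between types. Median-ratio scaling called 1 regulator between types, and no filter or a random block 1 inhibitor gene. With a line left out, mitochondrial release ranged from 2 to 5 in Type D and 1 to 4 in Type V, regulators from 1 to 3 in Type V, inhibitors from 1 to 2 in each type, downstream genes from 1 to 4 in Type D and 1 to 3 in Type V and between types, PIDDosome partners from 1 to 2 in each type, and regulators, inhibitors and partners between types from 0 to 1. The cause was not tested. Without read counts, the part of depth in these differences is unknown.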
